A study of Mus musculus with 6 samples.

Results

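Transferrin, its receptor, the 2 ferritin chains, 2 membrane iron transporters and 2 multicopper ferroxidases were followed through the brain transcriptome of Angptl2-/- and Angptl2+/+ mice. These 8 genes (Trf, Tfrc, Fth1, Ftl1, Slc11a2, Slc40a1, Cp and Heph) were chosen by symbol, from the 54532 gene identifiers for which a value was deposited, and all 8 were present in the table and abundant enough to be tested. Brain RNA was sequenced at postnatal day 15 from 3 Angptl2-/- and 3 Angptl2+/+ samples, and each sample was used as a separate library. The Angptl2-/- mice lacked exon 2 of Angptl2, which encodes a secreted angiopoietin-like protein. The allele came from male Angptl2 fl/fl; Stra8-cre mice, in which Cre acts in the male germ line, bred to wild-type females, and the floxed allele was made on a C57BL/6 background. The sources used here do not say that every library came from a different mouse, so every p-value here reflects the variation among these samples, which may be in part technical. The values were FPKM, fragments divided by gene length and by library size, so levels of different genes can be set side by side per unit of length.

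Iron travels in plasma and in brain fluid bound to transferrin, and cells take it up by endocytosis of the complex with the transferrin receptor, which is abundant on brain capillary endothelium and neurons. Inside the cell it leaves the endosome through a divalent metal transporter, is stored in the ferritin shell, and leaves the cell through ferroportin with the help of a copper ferroxidase. Oligodendrocytes are the most iron-rich cells of the brain, express transferrin themselves and need iron for myelin synthesis. Iron-regulatory proteins bind stem-loops called iron-responsive elements in messenger RNAs: an element in the 5′ untranslated region blocks translation when iron is scarce, while elements in the 3′ untranslated region of the receptor mRNA protect it from decay.

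The elements found in 4 of the 8 genes are shown because control through the 5′ untranslated region acts on translation, which RNA levels do not show, while the elements of Tfrc act on the mRNA itself. Mouse transcripts of GENCODE M21 (GRCm38) were searched on the transcript strand for a bulged C, 5 paired bases, the loop CAGTGN and 5 paired bases, with at least 3 of 6 further pairs below. The window printed is 29 bases long, written 5′ to 3′ with T for U, and the capitals mark the loop. Fth1 carried 1 match in its 5′ untranslated region (chr19:9982732-9982760, plus strand), Ftl1 carried 1 (chr7:45459779-45459807, minus strand) and Slc40a1 carried 1 (chr1:45925465-45925493, minus strand). Tfrc carried 4, all in its 3′ untranslated region on the plus strand (chr16:32631219-32631247, chr16:32631598-32631626, chr16:32631663-32631691 and chr16:32631710-32631738).
Fth1, 5′: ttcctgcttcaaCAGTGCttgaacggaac
Ftl1, 5′: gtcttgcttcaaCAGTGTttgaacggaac
Slc40a1, 5′: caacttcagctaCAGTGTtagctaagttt
Tfrc, 3′, element 1: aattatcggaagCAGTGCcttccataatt
Tfrc, 3′, element 2: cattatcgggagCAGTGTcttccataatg
Tfrc, 3′, element 3: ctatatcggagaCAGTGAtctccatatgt
Tfrc, 3′, element 4: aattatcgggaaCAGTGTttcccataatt
A match is a description of the letters and no evidence of binding. Of 21901 genes with a coding transcript, 11 (0.0502%) held a match in a 5′ and 48 (0.219%) in a 3′ untranslated region. Slc11a2, Trf, Cp and Heph held none by these letters, which says nothing about other forms of the element. One form of the Slc11a2 mRNA is known to carry an element in its 3′ untranslated region.

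Fragments of all genes, as recovered from the FPKM values and gene lengths, summed to 17127264 to 18928918 per library. The library size implied by the smallest step of the FPKM values was 16382568 to 19175241. The sum exceeded that size in Angptl2-/- replicates 2 and 3 and in Angptl2+/+ replicate 3 (18167953 against 16976443 in the last). The reason was not tested. The targeted gene was weak: Angptl2 (chromosome 2, 33216069 to 33247717) had 0.166, 0.320 and 0.126 FPKM in Angptl2-/- and 0.660, 0.958 and 0.290 FPKM in Angptl2+/+ libraries, and 1 Angptl2-/- library lay above 1 Angptl2+/+ library (log2 difference −1.21, exact permutation test, two-sided, p = 0.2). A value over the whole gene checks a deletion of 1 exon only in part. Several libraries stood apart in markers of brain regions. Angptl2+/+ replicate 1 held more cerebellar RNA, with a summed level over 10 markers of 142 FPKM. This sum was 48.1 to 60.3 FPKM in Angptl2-/- libraries, and 58.5 and 49.3 FPKM in Angptl2+/+ replicates 2 and 3. Of these markers, Cbln3 had 0.118, 0.207 and 0.276 FPKM in Angptl2-/- and 10.9, 0.116 and 0.121 FPKM in Angptl2+/+ libraries. The Angptl2-/- libraries held more choroid plexus RNA, with a summed level over 14 markers of 107 to 953 FPKM against 3.09 to 10.7 FPKM in Angptl2+/+ libraries, most of it Ttr (transthyretin), and the genotypes differed in how many libraries carried sex markers of each kind. In whole tissue, fewer cells of a type and less RNA per cell cannot be told apart.

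Across genes the order of levels was steep and much the same in all libraries. Fth1 averaged 1017 FPKM over the 6 libraries and ranked 12th of all genes in the table, Ftl1 averaged 81.2 FPKM and Tfrc 37.9 FPKM. The transporters and the other genes were far lower, with means of 7.57 FPKM for Slc11a2, 1.73 FPKM for Slc40a1, 1.54 FPKM for Cp, 1.52 FPKM for Trf and 0.978 FPKM for Heph. Each of the 4 upper steps, Fth1 over Ftl1, Ftl1 over Tfrc, Tfrc over Slc11a2 and Slc11a2 over Slc40a1, was present in every library with ranges that did not touch. The ranges of Slc40a1, Cp, Trf and Heph ran into one another: Cp was above Trf in 4 of 6 libraries, and Trf above Heph in 6 of 6. Storage genes were read from 1523 to 71639 fragments per library, while Trf rested on 59 to 187 and had a counting error of 7.31 to 13.0% in each library.

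**Figure D1:**
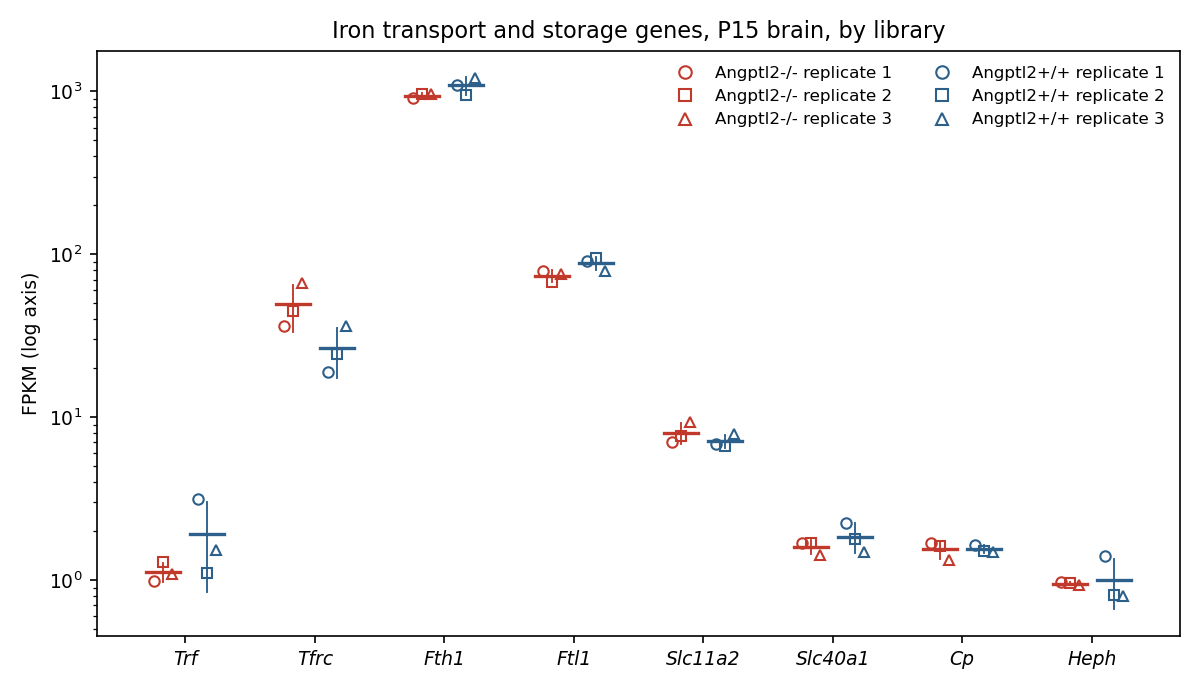
FPKM on a log axis for the 8 genes, with Angptl2-/- libraries (red, left) and Angptl2+/+ libraries (blue, right), replicates as separate symbols, horizontal bars for the mean and vertical bars for the SD (n = 3). Fth1 sits between 908 and 1216 FPKM, Trf between 0.990 and 1.53 FPKM in all but Angptl2+/+ replicate 1 (3.16), and the Tfrc means stand apart while their ranges just overlap.

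None of the 8 genes passed the test over all genes (limma on log2(FPKM + 0.1), Benjamini-Hochberg over 14862 genes, adjusted p under 0.05), and neither did any other gene (0%), nor did voom on the recovered fragments call any (0 genes). With limma p-values left unadjusted and a limit of 0.05, 1 of 8 was higher in Angptl2-/-, against 7.09% of all genes tested, and 0 of 8 were lower, against 9.12%. Groups of libraries that did not overlap were found for 0 of 8 genes above, against 10.7% of all genes, and for 1 of 8 below, against 11.8%. The median log2 fold change was −0.10 over the 8 genes and −0.0043 over all genes tested. Because of the added 0.1, fold changes of weakly expressed genes come out too small.

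Trf encodes transferrin, the plasma and brain carrier of ferric iron (ENSMUSG00000032554, chromosome 9, 103204001 to 103230444, minus strand). It had 0.990, 1.28 and 1.08 FPKM in Angptl2-/- libraries and 3.16, 1.102 and 1.53 FPKM in Angptl2+/+ libraries. Angptl2+/+ replicate 1 alone was high, and the other 5 libraries overlapped. The means were 1.12 ± 0.151 FPKM in Angptl2-/- and 1.93 ± 1.08 FPKM in Angptl2+/+ (SD, n = 3 each). This gave a log2 fold change of −0.61 (SE 0.36, 95% interval −1.46 to 0.24, adjusted p = 0.417 in limma). The value was −0.20 once Angptl2+/+ replicate 1 was left out and −0.92 once Angptl2+/+ replicate 2 was. Trf is among the candidate genes the study chose on these samples, so its direction here is not independent evidence. The study also measured Trf mRNA in brain by quantitative RT-PCR and reported it markedly lower in Angptl2-/- mice. The primers listed for that measurement are described under the other observations.

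The myelin markers moved with the same library. The summed level of the 14 markers of mature oligodendrocytes, all of them tested and none at 0, was 648 to 1238 FPKM in Angptl2-/- and 1027 to 2091 FPKM in Angptl2+/+ libraries, with Angptl2+/+ replicate 1 the highest. All 14 had a negative log2 fold change (median −0.59), and none passed the adjusted test. Relative to the mean log2 level of these markers, Trf stood at 0.21, 0.14 and −0.51 in Angptl2-/- libraries and at 0.10, −0.29 and 0.19 in Angptl2+/+ libraries. The groups overlapped, with a difference of −0.051 (exact permutation test, two-sided, p = 0.9). The smallest p that test can give with these libraries is 0.1, so it could not have passed a limit of 0.05. It therefore cannot decide whether Trf differed relative to these markers. The part of the cerebellar tissue in Angptl2+/+ replicate 1 was not tested beyond leaving out that library.

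The low level of Trf has a further limit in the annotation. Of its 3320 summed exon bases, 2108 (63.5%) lie on the same strand inside exons of Gm20425, a read-through model that spans chromosome 9 from 103190208 to 103230307 and is listed at 0 in all 6 libraries. The overlap takes in 2017 of the 2091 coding bases of Trf (96.5%) and leaves 1212 exon bases that belong to Trf only. Among protein-coding genes with at least 60% of exon bases shared on the same strand, a bin chosen after the Trf value was seen, 31 of 347 (8.93%) reached a mean of 0.5 FPKM and 54.5% were at 0 in every library. Of 20254 protein-coding genes with none shared, 58.9% reached that mean and 18.9% were at 0. How fragments in shared exons were counted is not given in the sources used here, and the part of this overlap in the FPKM of Trf was not tested. None of the other 7 genes shared more than 8.13% of its exon bases on the same strand.

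Tfrc encodes the transferrin receptor and is the gene with the 3′ elements printed above (ENSMUSG00000022797, chromosome 16, 32608920 to 32632794, plus strand). It had 36.3, 44.6 and 66.9 FPKM in Angptl2-/- libraries and 18.9, 24.3 and 36.4 FPKM in Angptl2+/+ libraries. The groups overlapped by 1 pair only, since the lowest Angptl2-/- library and the highest Angptl2+/+ library differed by less than their counting error. The means were 49.3 ± 15.8 FPKM in Angptl2-/- and 26.5 ± 9.01 FPKM in Angptl2+/+ (SD, n = 3 each). The log2 fold change of 0.90 (SE 0.29, 95% interval 0.21 to 1.58) was the 1 difference at an unadjusted p under 0.05, and with limma's adjusted p = 0.274 it was not called.

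The direction for Tfrc was the same in all 18 alternative settings, with log2 fold changes from 0.57 to 1.15. The lowest came from the correction for GC content (the Tfrc exons hold 39.4% G and C), and leaving out Angptl2-/- replicate 3 gave 0.65. Endothelial markers did not run the same way: the 12 genes summed to 105 to 115 FPKM in Angptl2-/- and 128 to 146 FPKM in Angptl2+/+, with Cldn5 as the first of the list and none at 0. The 10 neuron markers summed to 1348 to 1475 FPKM in Angptl2-/- and 1183 to 1528 FPKM in Angptl2+/+ libraries, and overlapped. Of these 10, 3 were higher and 1 lower at an unadjusted limma p under 0.05 (7.09 and 9.12% of all genes). The 10 striatal markers summed to 155 to 292 FPKM in Angptl2-/- and 71.3 to 163 FPKM in Angptl2+/+ libraries, and 7 of the 10 were higher at an unadjusted p under 0.05. The part of this regional difference in the Tfrc values was not tested.

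**Figure D2:**
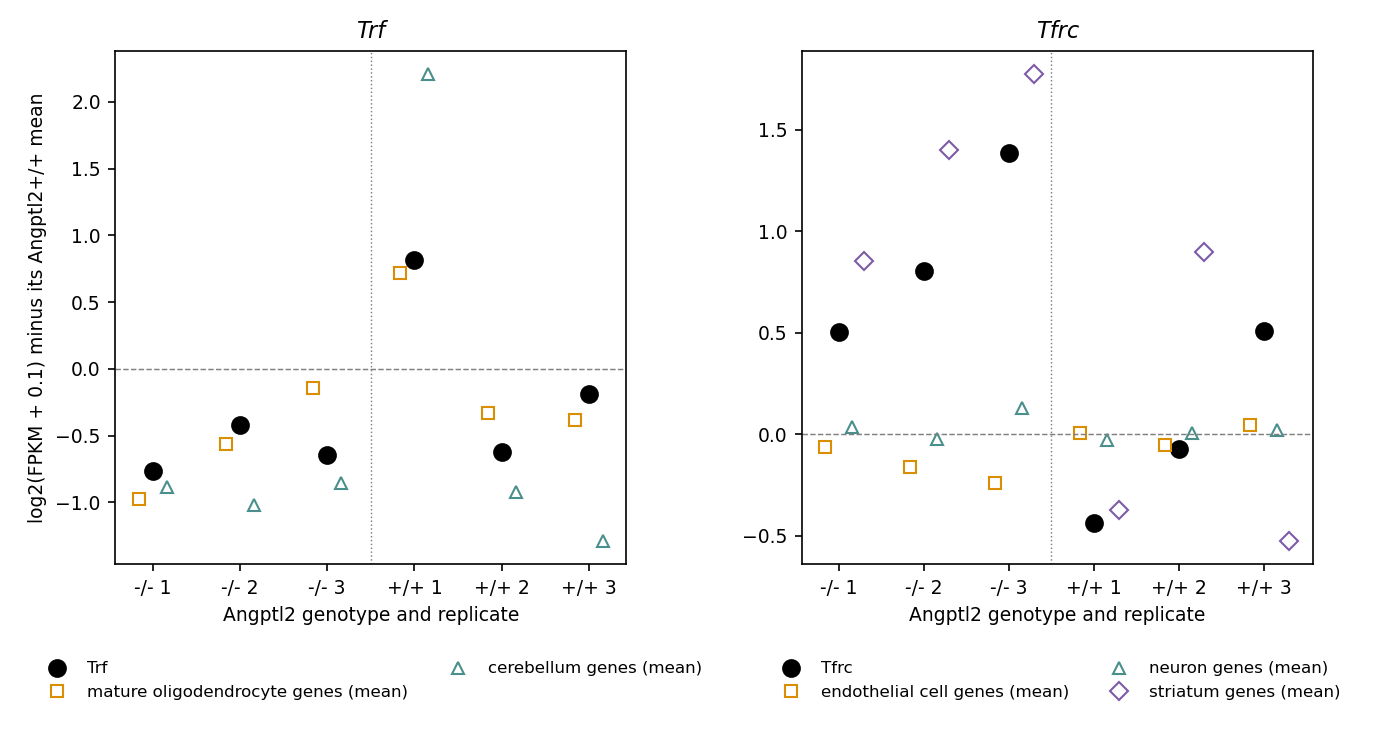
Log2(FPKM + 0.1) of Trf (left) and Tfrc (right) in each library, minus the Angptl2+/+ mean, beside the mean of marker lists on the same scale; Angptl2-/- libraries are left of the dotted line. Trf and the mature oligodendrocyte genes are both highest in Angptl2+/+ replicate 1 (0.81 and 0.72), as are the cerebellum genes (2.21). Tfrc is above 0 in all 3 Angptl2-/- libraries and in Angptl2+/+ replicate 3. The endothelial and neuron lists lie between −0.24 and 0.13. The striatum list lies at 0.86, 1.40 and 1.77 in Angptl2-/- and at −0.37, 0.90 and −0.52 in Angptl2+/+ libraries.

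The carrier and its receptor were also compared within each library. The ratio of Trf to Tfrc FPKM was 0.0273, 0.0288 and 0.0162 in Angptl2-/- libraries and 0.167, 0.0454 and 0.0419 in Angptl2+/+ libraries. All 3 Angptl2-/- ratios were smaller than all 3 Angptl2+/+ ratios. Among single genes, 22.5% did not overlap in 1 direction or the other, and no such share was computed for ratios. The log2 difference was −1.55, and the exact permutation test, two-sided, gave p = 0.1, the smallest that 3 samples against 3 allow, or p = 0.3 adjusted over the 3 ratios computed. With Angptl2+/+ replicate 1 left out the difference was −0.90, and with the GC correction −1.11. The part of the regional differences in this ratio was not tested.

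Ferritin is a shell of heavy chains, which oxidise iron, and light chains, which help to form its mineral core. Fth1, the heavy chain (ENSMUSG00000024661, chromosome 19, 9980598 to 9985098, plus strand), had 908, 967 and 958 FPKM in Angptl2-/- libraries and 1098, 953 and 1216 FPKM in Angptl2+/+ libraries. Angptl2+/+ replicate 2 lay within the Angptl2-/- range and the other 2 Angptl2+/+ libraries above it. The means were 945 ± 31.9 FPKM in Angptl2-/- and 1089 ± 132 FPKM in Angptl2+/+ (SD, n = 3 each), with a log2 fold change of −0.20 (SE 0.13, 95% interval −0.50 to 0.10, adjusted p = 0.442 in limma). It was −0.12 when Angptl2+/+ replicate 3 was left out and −0.29 when Angptl2+/+ replicate 2 was.

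Ftl1, the light chain (ENSMUSG00000050708, chromosome 7, 45457944 to 45459884, minus strand), had 79.16, 67.3 and 75.8 FPKM in Angptl2-/- libraries and 91.2, 94.3 and 79.17 FPKM in Angptl2+/+ libraries. It was the 1 gene of the 8 whose groups did not overlap, by a gap far smaller than the counting error of a library (2.11 to 2.56%). With quantile normalization, median-ratio scaling or the GC correction its groups overlapped, and those of Tfrc did not. The log2 fold change was −0.25 (SE 0.11, 95% interval −0.52 to 0.02, adjusted p = 0.326 in limma). It was 0.031 after correction for GC content, so that no direction can be given for Ftl1. The Ftl1 exons hold 57.7% G and C.

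Ferritin genes have many processed copies in the mouse genome. For Fth1, 3 copies were in the table, with at most 2 fragments in any library. For Ftl1, 18 copies were in the table and 7 of them were above 0. Ftl1-ps1 (99.6% identical over 910 bases, annotated as protein-coding) had 1.41, 1.65 and 1.497 FPKM in Angptl2-/- and 2.02, 1.33 and 1.06 FPKM in Angptl2+/+ libraries. Gm15590 (99.1% identical over 552 bases) had 0.567, 0.322 and 0.111 FPKM in Angptl2-/- and 1.32, 0.918 and 0.320 FPKM in Angptl2+/+ libraries. All copies together held 1.89 to 2.75% of the Ftl1 and copy fragments in Angptl2-/- and 1.37 to 2.68% in Angptl2+/+ libraries, and reads of so close a copy cannot be told from those of the parent. With the copies added to the parent, the groups of Ftl1 overlapped.

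The ratio of heavy to light chain FPKM was 11.5, 14.4 and 12.7 in Angptl2-/- libraries and 12.04, 10.1 and 15.4 in Angptl2+/+ libraries. The groups overlapped widely, with means of 12.8 ± 1.46 in Angptl2-/- and 12.5 ± 2.66 in Angptl2+/+ (SD, n = 3 each). The exact permutation test, two-sided, gave p = 0.9 for the log2 difference of 0.052. This ratio depends on the length used for each gene: the summed exons of Fth1 are 3469 bases and those of Ftl1 1340 bases, but the principal transcripts are 1494 and 968 bases. In fragments, without any length, the ratio of Fth1 to Ftl1 ran from 29.7 to 37.2 in Angptl2-/- and from 26.2 to 39.8 in Angptl2+/+ libraries.

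Slc11a2 encodes the divalent metal transporter that moves ferrous iron across apical and endosomal membranes (ENSMUSG00000023030, chromosome 15, 100387898 to 100425072, minus strand). It had 7.07, 7.71 and 9.32 FPKM in Angptl2-/- libraries and 6.80, 6.69 and 7.84 FPKM in Angptl2+/+ libraries. The groups overlapped, and the highest value was that of Angptl2-/- replicate 3. The log2 fold change was 0.17 (SE 0.14, 95% interval −0.15 to 0.49, adjusted p = 0.539 in limma), 0.058 without that library and 0.25 without Angptl2-/- replicate 1.

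Slc40a1 encodes ferroportin, the iron exporter of vertebrate cells (ENSMUSG00000025993, chromosome 1, 45908068 to 45926523, minus strand). It had 1.69, 1.70 and 1.43 FPKM in Angptl2-/- libraries and 2.25, 1.79 and 1.49 FPKM in Angptl2+/+ libraries. Angptl2+/+ replicate 1 was again the highest library, and the groups overlapped. The log2 fold change of −0.17 (SE 0.19, 95% interval −0.63 to 0.29, adjusted p = 0.665 in limma) was −0.026 without that library and −0.31 without Angptl2+/+ replicate 3.

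Ceruloplasmin and hephaestin are copper oxidases that convert ferrous to ferric iron as it leaves a cell. Cp (ENSMUSG00000003617, chromosome 3, 19957054 to 20009145, plus strand), found in plasma and on astrocytes, had 1.68, 1.62 and 1.33 FPKM in Angptl2-/- libraries and 1.65, 1.51 and 1.48 FPKM in Angptl2+/+ libraries. Angptl2-/- libraries held both the highest and the lowest value. The log2 fold change was −0.0076 (SE 0.17, 95% interval −0.41 to 0.39, adjusted p = 0.986 in limma), and its sign changed in 4 of 18 alternative settings.

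Heph (ENSMUSG00000031209, chromosome X, 96455359 to 96574485, plus strand), a membrane-bound relative of ceruloplasmin, had 0.967, 0.959 and 0.932 FPKM in Angptl2-/- libraries and 1.40, 0.815 and 0.7995 FPKM in Angptl2+/+ libraries. The Angptl2-/- libraries lay between Angptl2+/+ replicate 1 and the other 2. The log2 fold change was −0.027 (SE 0.27, 95% interval −0.65 to 0.60, adjusted p = 0.968 in limma) and turned to 0.21 without that library.

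Heph is X-linked, and the libraries differed in sex markers. Xist, the RNA of the inactive X chromosome, had 0.0697, 42.2 and 0 FPKM in Angptl2-/- and 27.4, 27.9 and 0 FPKM in Angptl2+/+ libraries. The Y-linked Ddx3y had 9.26, 0 and 14.7 FPKM in Angptl2-/- and 0, 0 and 9.96 FPKM in Angptl2+/+ libraries. The 3 libraries with Xist above 1 FPKM held 0.959, 1.40 and 0.815 FPKM of Heph, and the other 3 held 0.967, 0.932 and 0.7995 FPKM, so the sets overlapped. The ratio of Cp to Heph FPKM was 1.74, 1.69 and 1.42 in Angptl2-/- and 1.18, 1.85 and 1.85 in Angptl2+/+ libraries (log2 difference 0.017, exact permutation test, two-sided, p = 1).

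**Figure D3:**
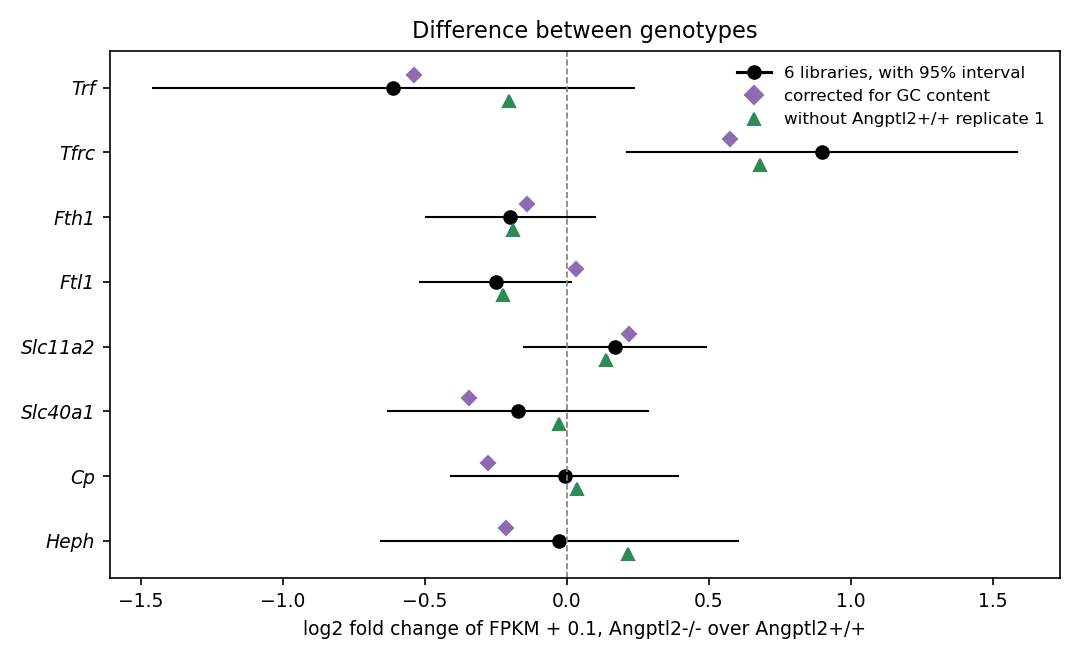
Log2 fold change of each gene, Angptl2-/- over Angptl2+/+, with its 95% interval (black), after correction for GC content (diamonds) and without Angptl2+/+ replicate 1 (triangles). Only the Tfrc interval (0.21 to 1.58) leaves out 0; the Trf value is −0.20 without that library, against −0.61 with it, and Ftl1 is at 0.031 with the GC correction.

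By direction, the gene with elements in the 3′ untranslated region had a positive log2 fold change (Tfrc, 0.90) and the 3 genes with an element in the 5′ untranslated region had negative ones (Fth1, −0.20, Ftl1, −0.25, and Slc40a1, −0.17). These 4 values are a description, and none passed the adjusted test. Negative values were also held by 6 of the 8 genes together and by 7514 of the 14862 genes tested. The Ftl1 value turned positive with the GC correction, and the Slc40a1 value was −0.026 without Angptl2+/+ replicate 1. Any part of the elements in these directions was not tested.

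The wider pathway was read from 69 other genes of iron handling in 7 lists by role, all of them in the table, of which 54 were tested. No gene of these lists passed the adjusted test. By the unadjusted limma p, 4 of 54 were higher in Angptl2-/- (7.09% of all genes) and 6 of 54 lower (9.12% of all genes). Groups did not overlap for 5 above and 9 below (10.7 and 11.8% of all genes), and the median log2 fold change was −0.023. These shares lie near those of all genes.

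Among the iron-regulatory proteins and their regulator, the median log2 fold change of the 3 tested genes was 0.18. Ireb2, which encodes iron-regulatory protein 2, had 11.7, 13.5 and 14.5 FPKM in Angptl2-/- and 10.05, 9.10 and 10.3 FPKM in Angptl2+/+ libraries. All Angptl2-/- libraries were above all Angptl2+/+ libraries. Its log2 fold change was 0.42 (SE 0.12, adjusted p = 0.273 in limma) and 0.077 after correction for GC content. Fbxl5, the ubiquitin ligase subunit that marks it for decay when iron is plentiful, stood at 0.18 (adjusted p = 0.533). After the GC correction Fbxl5 was at −0.094.

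In the hepcidin axis, 6 of 10 genes were tested, and Hamp, the hormone itself, was listed at 0 in every library. Neo1, a co-receptor of bone morphogenetic protein signalling and the most abundant of the list, had a log2 fold change of 0.17 (adjusted p = 0.387), and Smad4, the common SMAD of that pathway, one of 0.20 (adjusted p = 0.411). Of 7 tested genes of iron reduction and vesicle release, Vps35, a retromer subunit that returns cargo from endosomes, had 25.2, 32.2 and 37.2 FPKM in Angptl2-/- and 22.0, 22.6 and 26.2 FPKM in Angptl2+/+ libraries (log2 fold change 0.40, adjusted p = 0.290, and 0.10 after the GC correction). Steap1, a metalloreductase family member, stood at 1.11 (adjusted p = 0.324) with at most 1.33 FPKM in any library. Snx3, a sorting nexin that recycles the transferrin receptor and the most abundant of the list, stood at 0.10 (adjusted p = 0.622).

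Of the genes that handle iron in the cytosol, the chaperone Pcbp1, which delivers iron to ferritin and was the most abundant, had a log2 fold change of −0.30 (adjusted p = 0.406) and Bola2, a partner of glutaredoxin 3, one of −0.26 (adjusted p = 0.484). The GC correction left Pcbp1 at −0.018 and Bola2 at −0.073. Ftmt, mitochondrial ferritin, was listed at 0 in every library. Among other uptake and binding genes, 5 of 11 were tested. Slc22a17, the lipocalin-2 receptor, stood at −0.36 (adjusted p = 0.314), App, the amyloid precursor, at −0.047 (adjusted p = 0.837), and Prnp, the prion protein and the most abundant, at 0.0019 (adjusted p = 0.993). After the GC correction Slc22a17 was at 0.025, App at −0.092 and Prnp at −0.0065.

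The mitochondrial and iron-sulphur cluster genes lay on both sides of 0. Of 18 genes 17 were tested, with a median log2 fold change of −0.083. By the unadjusted limma p, 2 were higher (7.09% of all genes) and 3 lower (9.12%). Lyrm4, a subunit of the cysteine desulphurase complex, stood at 0.34 (adjusted p = 0.307). The cluster scaffold Iscu (−0.31, adjusted p = 0.277), the mitochondrial iron importer Slc25a28 (−0.30, adjusted p = 0.274) and the co-chaperone Hscb (−0.79, adjusted p = 0.274) stood on the other side. The GC correction left Iscu at −0.089, Slc25a28 at −0.066 and Hscb at −0.96. The outer-membrane cluster protein Cisd1, the most abundant, stood at −0.042 (adjusted p = 0.863), and at 0.031 after the GC correction.

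Haem breakdown and transport was the list with the lowest median, −0.26 over 9 tested genes. By the unadjusted limma p, 3 of the 9 were lower (9.12% of all genes) and 0 higher (7.09%). Slc48a1, the haem transporter of lysosomes and endosomes and the most abundant, had 43.0, 42.3 and 44.5 FPKM in Angptl2-/- and 54.1, 51.1 and 57.4 FPKM in Angptl2+/+ libraries. The groups were well apart, with a log2 fold change of −0.32 (SE 0.09, adjusted p = 0.273), and −0.10 after the GC correction. Blvrb, biliverdin reductase B, had 1.16, 0.745 and 0.570 FPKM in Angptl2-/- and 1.59, 1.84 and 1.46 FPKM in Angptl2+/+ libraries, without overlap (log2 fold change −0.95, adjusted p = 0.273, and −0.69 after the GC correction). Flvcr2, a membrane transporter of brain endothelial cells, stood at −0.62 (adjusted p = 0.289). Red blood cell transcripts were lower in the same libraries: the 6 markers, none at 0 in every library, summed to 125 to 274 FPKM in Angptl2-/- and 302 to 498 FPKM in Angptl2+/+, with Hba-a1 at a log2 fold change of −1.08 (adjusted p = 0.274). Their part in the values of this list was not tested.

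**Figure D4:**
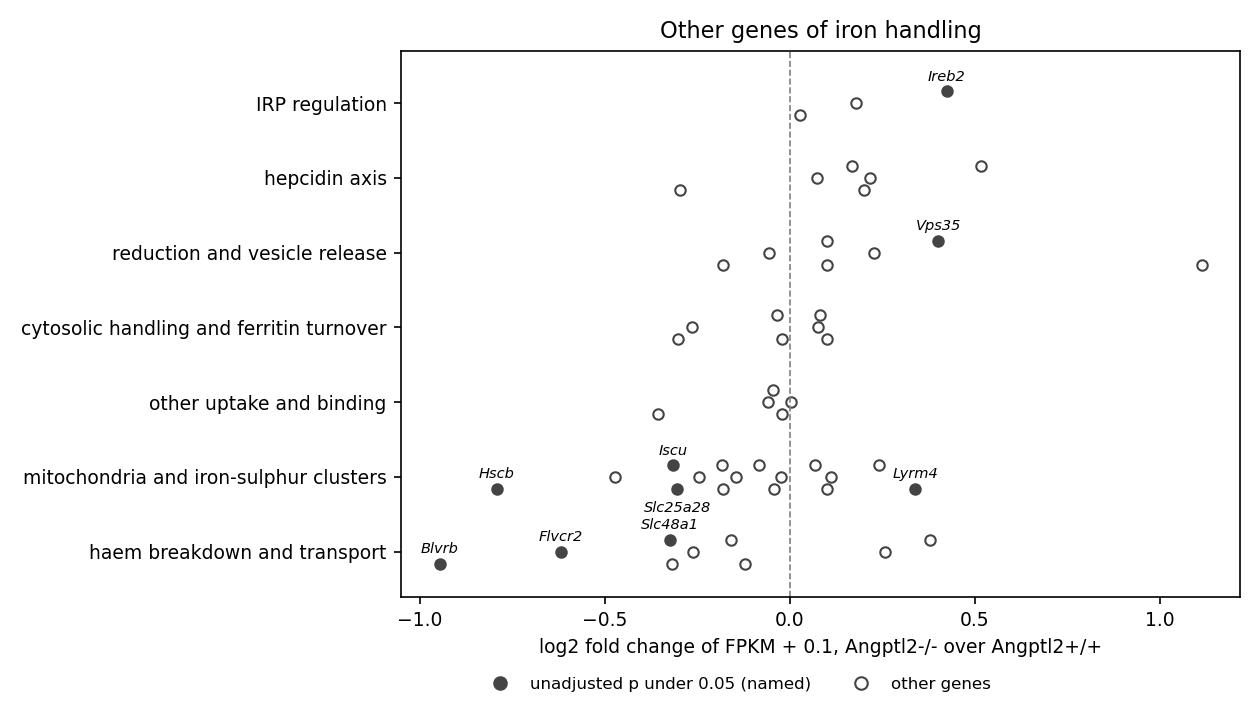
Log2 fold change, Angptl2-/- over Angptl2+/+, of 53 tested genes of iron handling in 7 roles; filled points are the 9 of them at an unadjusted p under 0.05 (limma), named, and open points the others. Filled points lie on both sides, from −0.95 for Blvrb to 0.42 for Ireb2, and in the haem list all 3 are below 0. Over all genes tested, 7.09% were higher and 9.12% lower at that limit.

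Likeness to other genes was measured as the root mean square difference of centred log2(FPKM + 0.1) over the 6 libraries, among protein-coding genes with a mean of at least 1 FPKM. It is a description of 6 libraries that share their regional make-up. The genes most like Trf were Mreg (0.10), Capza1 (0.14) and Sgpp2 (0.18), all highest in Angptl2+/+ replicate 1, and those most like Tfrc were Lrrc6 (0.14), Mctp1 (0.17) and St6gal2 (0.19). Ankrd40 (0.017), Pml (0.019) and Inpp5b (0.035) were most like Fth1, and Larp6 (0.025), Ndufv1 (0.032) and Sqstm1 (0.033) most like Ftl1. For the transporters they were Tm9sf3, Rabgap1 and Phospho2 with Slc11a2 (0.021 to 0.026) and Eml1 and Mrps5 with Slc40a1 (0.041 to 0.047). Hspd1, Kctd21 and Tmem39b were most like Cp (0.028 to 0.036), and Aqp4, the astrocyte water channel, Trmt9b and Npas3 most like Heph (0.076 to 0.077).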

How the data were processed

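Per the labels, brain RNA was sequenced on an Illumina platform, and the authors deposited 1 FPKM value per gene and library. The submitters' processing notes name Bowtie 0.12.2 and mm8. Their counter, strand setting, annotation and filters: not given in the sources used here. Of 54532 identifiers, 54495 matched GENCODE M21 (GRCm38), whose symbols, coordinates and summed exon lengths were used. FPKM multiplied by length gave whole fragments, within 0.05, for 96.6 to 96.8% of values above 0. Counting errors cover counting only. Fragments of any 2 libraries differed beyond counting error (chi-square divided by its degrees of freedom, 14.25 to 54.7), and 0 columns were left out.

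Genotypes were compared with limma 3.58.1 (R 4.3.3; empirical Bayes, intensity trend, two-sided) on log2(FPKM + 0.1), Angptl2-/- minus Angptl2+/+. It covered the 14862 genes whose mean reached 0.5 FPKM, with Benjamini-Hochberg adjustment over them. The fit was checked on simulated data with less noise than these libraries. That check does not show which changes it could find here. Ratios were tested by exact permutation of the 6 libraries. Ferritin copies were found with blastn 2.17.0 (at least 80% identity over 300 bases) and shared exon bases from the annotation, with Python 3.11.15 and pandas 2.3.3. The alternatives were pseudocounts of 1 and 0.01, no filter or a mean of at least 1 FPKM, 3 scalings (quantile, median-ratio, without mitochondrial and haemoglobin genes), loess corrections for GC content and gene length (span 0.3), voom on fragments, no trend, the replicate number as a block, and each library left out.

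Named genes were the 8, Angptl2, ferritin copies with a mean of at least 0.5 FPKM, for each iron list the 2 with the smallest p, the most abundant and any at an unadjusted p under 0.05, the first gene of the marker lists used, and the 3 genes most like each of the 8. Gm20425, Rxrb, Cbln3, Hamp, Ftmt and genes called under an alternative were named after their values were seen. Of the genes this rule gave, 3 are not reported here. The 8 genes and the lists were chosen with earlier results of these data known.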

Additional observations from a re-analysis of the deposited data

How the results depend on the processing

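None of the 8 genes and no other iron gene passed the adjusted test under any alternative run, with adjusted p from 0.186 to 0.997 for the 8 genes. The directions of Trf, Tfrc, Fth1, Slc11a2 and Slc40a1 were kept throughout. Ftl1 turned to 0.031 with the GC correction. Cp turned to 0.010 with quantile normalization and to 0.0059 with rescaling without mitochondrial and haemoglobin genes, and ran from −0.071 to 0.091 with single libraries left out. Heph turned to 0.0038 with quantile normalization and ran from −0.15 to 0.21 with single libraries left out. The log2 difference of the Fth1 to Ftl1 ratio was −0.17 with the GC and −0.042 with the length correction, and from −0.091 to 0.21 with single libraries left out. That of Cp to Heph was −0.061 and −0.0073 with the same corrections, and from −0.20 to 0.13. Non-overlapping genes of the 8 numbered 1 as reported above, beside 22.5% of all genes, 2 with the length correction (22.0%; Ftl1 and Tfrc), 2 with voom on fragments (22.0%; Fth1 and Tfrc), 0 with ferritin copies added (22.5%), and 1 to 4 with single libraries left out (28.1 to 43.0%). The 1 gene was Tfrc in place of Ftl1 with quantile normalization, median-ratio scaling and the GC correction. Over all genes the calls numbered 0 to 1 with single libraries left out (Gapdh, without Angptl2+/+ replicate 1). Genes at an unadjusted p under 0.05 by limma fell to 443 higher and 505 lower with the GC correction, against 1054 and 1355. The causes were not tested.

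Deviations of same-numbered libraries correlated at 0.04, −0.07 and 0.16, and those of libraries with unlike numbers at −0.26 to 0.26. With 3 libraries per group these values cannot decide whether the numbers pair the samples. With the replicate block, 1 gene was called over all genes (Ttr), none of the 8, and the Trf to Tfrc difference stayed at −1.55 (sign-flip p = 0.25, exact, the smallest 3 pairs allow).

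Depth limits Trf and Heph most, at 59 to 191 fragments per library.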

Other observations

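The letters of the primers listed for quantitative PCR of mouse Trf were searched in the transcripts of GENCODE M21. They are shown because Trf is one of the 8 genes, in lower case and 5′ to 3′.
Trf primer, forward: gcagcccaaatgacccagt
Trf primer, reverse: ggagagggaccgatcaaagat
Neither primer was found in any of the 9 Trf transcripts, where the best positions had 6 and 8 mismatches. Both were found, in facing orientation, in Rxrb alone, a retinoid X receptor gene on chromosome 17, within the coding part of 2 transcripts. In Rxrb-201 they lie at bases 1136 to 1154 and 1393 to 1413 and bound a product of 278 bases. Of 16 mouse genes with listed primers, 15 pairs were found in their own gene. Rxrb had 14.1, 13.7 and 9.97 FPKM in Angptl2-/- libraries and 17.5, 20.9 and 16.8 FPKM in Angptl2+/+ libraries. All Angptl2-/- libraries were below all Angptl2+/+ libraries, as they were for 11.8% of all genes tested. The log2 fold change of Rxrb was −0.56 (SE 0.16, adjusted p = 0.273 in limma) and −0.18 after correction for GC content. The study reported lower Trf in Angptl2-/- brain by quantitative RT-PCR, and these are the primers it lists. Which transcript the primers amplified was not tested here, and the FPKM of Trf does not rest on them.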
